A study of Danio rerio with 2 samples.

Results

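The cells described here are jaw joint chondrocytes of adult zebrafish that carried transcripts of *ucmab*. A barcode counted as a chondrocyte when it held at least 1 UMI (1 counted transcript molecule) of at least 4 of the 5 genes *col2a1a*, *matn1*, *snorc*, *cnmd* and *mia*, and as *ucmab*-positive when it also held at least 1 UMI of *ucmab*. Of the 4161 barcodes with 500 to 2000 genes and at most 5% of UMIs from mitochondrial genes, 140 met the first condition and 78 met both (1.87%). The other 62 chondrocytes held no *ucmab* UMI and are called *ucmab*-negative. The cells were thus chosen by their UMIs of these 6 genes, and the values of these genes are given as a description only.

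The cells came from 50 jaw joints, dissected from 3-month-old fish that carried both the *sox10:DsRed* and the *trps1:eGFP* transgene, and were pooled before sorting. The reporters mark cells by the fluorescence that the *sox10* and *trps1* transgenes drive, and no genotype without the transgenes and no other age was included. One library was made from the DsRed-positive sort, in which cells could be GFP-positive or GFP-negative (*sox10:DsRed*-enriched), and 1 from the GFP-positive sort (*trps1:eGFP*-enriched). With 1 library per sort and all joints pooled, there was no replicate, so no difference below was tested, and all intervals are 95% and cover counting error only.

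Chondrocytes secrete the matrix of cartilage, a mesh of type II collagen fibrils that carry collagens IX and XI, filled with proteoglycans and bridged by adaptors such as the matrilins. *ucmab* (LL0000031551 in the annotation of the files) encodes a zebrafish form of the unique cartilage matrix-associated protein, a small secreted protein rich in glutamate residues that are carboxylated in a vitamin K-dependent reaction, as in osteocalcin and matrix Gla protein. In the growth plates of mammals, chondrocytes that mature towards hypertrophy switch on Indian hedgehog and then type X collagen, whereas the related human and mouse UCMA is known from resting chondrocytes.

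Of the 78 *ucmab*-positive chondrocytes, 76 came from the *sox10:DsRed*-enriched library, where they made up 31.4% of 242 cells within the limits (25.6 to 37.7%). The other 2 came from the *trps1:eGFP*-enriched library (0.0510% of 3919 cells). The members thus rest on a single library almost throughout. Within the *sox10:DsRed*-enriched library, 55.9% of 136 chondrocytes carried *ucmab* (47.1 to 64.4%). The members held 254141 UMIs in all, with a median of 3069.5 per cell (lowest 1323, highest 7196) and 907.5 genes, and the *ucmab*-negative cells 185150 UMIs, with a median of 2503 and 859.5 genes. Deeper cells have a higher chance of showing any gene, so shares of cells are also given after each cell was thinned to 1000 UMIs. Of the cell barcodes, 16 occurred in both libraries, and none of these was a member.

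The 2 members from the *trps1:eGFP*-enriched library stood apart from the other 76. They held 6578 and 3345 UMIs, with 5 and 1 UMIs of *ucmab*, but 0 UMIs of *fgfbp2b*, *tnxba* and *otos*, which were found in 94.9%, 92.3% and 79.5% of all members. The deeper of them held 107 of the 119 UMIs of *lum* (lumican, a small proteoglycan of fibrous connective tissue) found in all members, 34 of the 36 of *clu* (clusterin) and 112 UMIs of *mia*. Values without these 2 cells are given below for *lum*, *mia*, *col1a1a*, *col1a2* and the lists of connective tissue and superficial zone markers.

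The label was checked on genes that the rule did not use. Of 78 members, 68 held *col9a1a* (87.2%, 77.7 to 93.7%), 70 *col11a1a* (89.7%), 69 *col11a2* (88.5%) and 53 *epyc*, the gene of the small proteoglycan epiphycan (67.9%). In the 106 cells of the same library outside the gate (median depth 2224.5 UMIs), *col9a1a* was found in 10.4% and *epyc* in 3.77%. Of the lists of cartilage collagens and cartilage matrix proteins, rule genes included, 10 of 11 and 17 of 20 annotated genes were found in members. *col9a1b*, *matn3b*, *fmoda* and *fmodb* were at 0. Of the 5 gate genes, all 5 were found in 69 members and 4 in the other 9, of which 6 lacked *col2a1a*, 2 *mia* and 1 *matn1*. DsRed transcripts were found in 65 members (83.3%, 73.2 to 90.8%, 1031 CPM), 46.2% of the other cells of that library and 0.307% of the other cells of the *trps1:eGFP*-enriched library (12 of 3915). EGFP was found in 23 members (29.5%, 19.7 to 40.9%) and in 24.2% of *ucmab*-negative cells, and 20 members held both reporters. *sox10* itself was found in 39.7% of members and 38.7% of *ucmab*-negative cells.

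The 78 members held 459 UMIs of *ucmab* (1806 CPM, the usual count scaled to the summed UMIs of the set, 1645 to 1979). The level differed widely among them. It was 1 UMI in 21 members, 2 to 4 in 27 and 5 or more in 30, with a median of 4 and a highest value of 75, followed by 29. Relative to the depth of each cell, the lowest member was at 139 CPM, the median at 1055 CPM and the highest at 14462 CPM. The cell with 75 UMIs held 16.3% of all *ucmab* UMIs, and the 5 highest cells 35.5%.

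**Figure D1:**
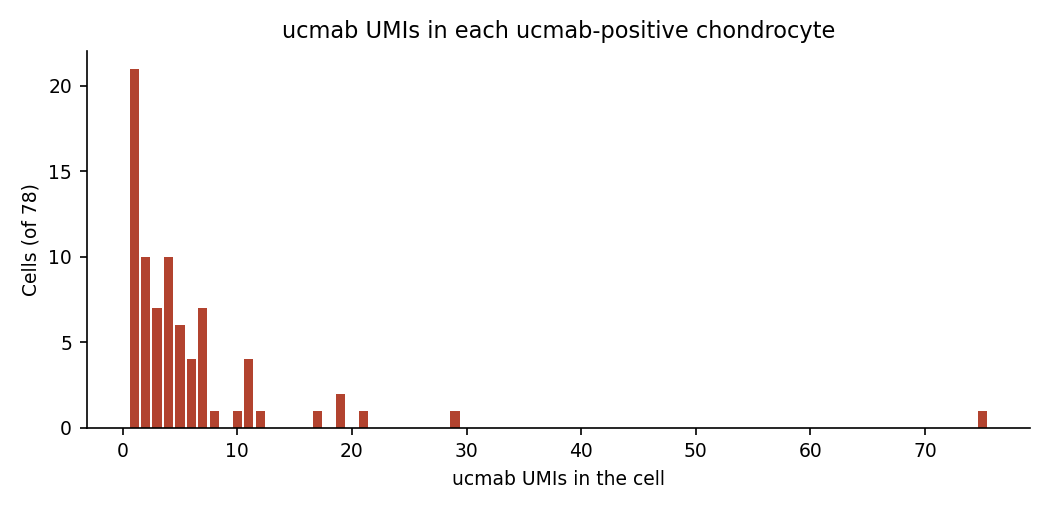
Number of *ucmab*-positive chondrocytes (vertical axis, of 78) by the number of *ucmab* UMIs in the cell (horizontal axis). Most members sit at low counts, 21 of them at 1 UMI, and a single cell holds 75 UMIs.

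The lower edge of the rule followed depth in part. The median depth was 2230 UMIs in members with 1 *ucmab* UMI, 2946 in those with 2 to 4 and 3595 in those with 5 or more. After each member was thinned to 1000 UMIs, 56 of 78 still held *ucmab* (71.8%, 60.5 to 81.4%). With all cells thinned first and the whole rule then applied, 47 cells were *ucmab*-positive, so both sets depend on the depth of each cell. At the edge of the gate, *ucmab* was found in 57.5% of the 120 cells with all 5 gate genes, 45.0% of the 20 cells with 4 and 11.1% of the 18 cells with 3.

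Outside the gate, *ucmab* was rare. It was found in 5 of the 106 other cells of the *sox10:DsRed*-enriched library (4.72%, 1.55 to 10.7%, 22.1 CPM, median depth 2224.5 UMIs) and in 11 of the 3915 other cells of the *trps1:eGFP*-enriched library (0.281%, 0.747 CPM, median depth 3648 UMIs). Among 146 cells that held both *bglap* and *ifitm5*, markers of osteoblasts, 0 held *ucmab*, which allows a share of cells with a UMI of up to 2.05% by the limit of 3 counts and 2.49% by the exact interval. Of 41 cells with both *prg4b*, which encodes a lubricin, and *vcana*, which encodes a versican, 1 held *ucmab* (2.44%). Both of these sets came wholly or mostly from the other library, so cell type and library cannot be told apart there. The paralog *ucmaa* was found in 0 of the 78 members, which allows a share of cells with a UMI of up to 3.85% by the limit of 3 counts and 4.62% by the exact interval, and in 7.66% of the other cells of the *trps1:eGFP*-enriched library.

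Set against all other cells, with 10 CPM added on either side, the highest ratios were those of *ucmab*, *fgfbp2b*, *tnxba*, *cnmd*, *col2a1a*, *otos*, *matn1*, LOC103910196, *tgm2l* and *snorc*, of which 5 belong to the rule. *fgfbp2b*, which encodes an FGF-binding protein, was found in 74 members (94.9%, 87.4 to 98.6%). Its level per member ran from 0 through a median of 13924 CPM to 45828 CPM, and 20.8% of the 106 other cells of the same library held it, at 375 CPM. *tnxba*, which encodes a tenascin X, was found in 72 members, with a median of 2911 CPM per cell and a highest value of 11371 CPM, against 78.4 CPM summed over the other cells of the library. *otos*, a zebrafish form of otospiralin, a protein known from the mammalian inner ear, was found in 62 members, with a median of 1044 CPM and a highest value of 5837 CPM, against 17.1 CPM. *tgm2l*, a member of the transglutaminase family of crosslinking enzymes, was found in 53 members (67.9%), at 1495 CPM summed over the set and 46.6 CPM in the other cells of the library. Its median per cell was 735 CPM in members and 0 CPM in *ucmab*-negative cells. The highest cell was at 7992 CPM in members and 9743 CPM in *ucmab*-negative cells, so it was not confined to members. All 4 genes were thus found in most members, but each was missing from some.

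Of 13045 genes with at least 20 UMIs outside the 6 rule genes, 1047 were at least 2-fold higher in members than in all other cells (8.03%) and 1263 at least 2-fold lower (9.68%). Nearly all of those other cells belong to the other library and sort. Against the 166 other cells of the *sox10:DsRed*-enriched library, with the members of that library alone, 364 of 2948 genes were higher (12.3%) and 340 lower (11.5%). Among the cartilage collagens other than *col2a1a*, 6 of the 8 genes measured were higher than in all other cells and 1 was lower. Of 14 other cartilage matrix proteins outside the rule, 7 were higher and 3 lower. Of 19 genes of chondroitin sulfate synthesis, 12 were higher and 0 lower. Of 18 chondrogenic transcription factors, 8 were higher and 1 lower, and of 22 genes of glycolysis and hypoxia, 8 were higher and 1 lower. The members were lower for 9 of the 18 genes of dissociation stress measured and higher for none of them. *hsp70.1*, a heat shock gene, was at 201 CPM in members. It was at 478 CPM in the 106 cells of their library outside the gate and 2660 CPM in those of the other library. For this gene, the members thus lay nearer to the cells of their own library.

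The closest comparison was with the 62 *ucmab*-negative chondrocytes, 60 of which came from the same library. A ratio is that of the summed CPM, and a log2 ratio that of the summed CPM after 10 CPM had been added to both. Of 1912 genes with at least 20 UMIs in both sets together, 86 were at least 2-fold higher in *ucmab*-positive cells (4.50%) and 103 at least 2-fold lower (5.39%), and the median log2 ratio of all of them was 0.04. The level of most genes therefore differed by less than 2-fold between the sets.

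**Figure D2:**
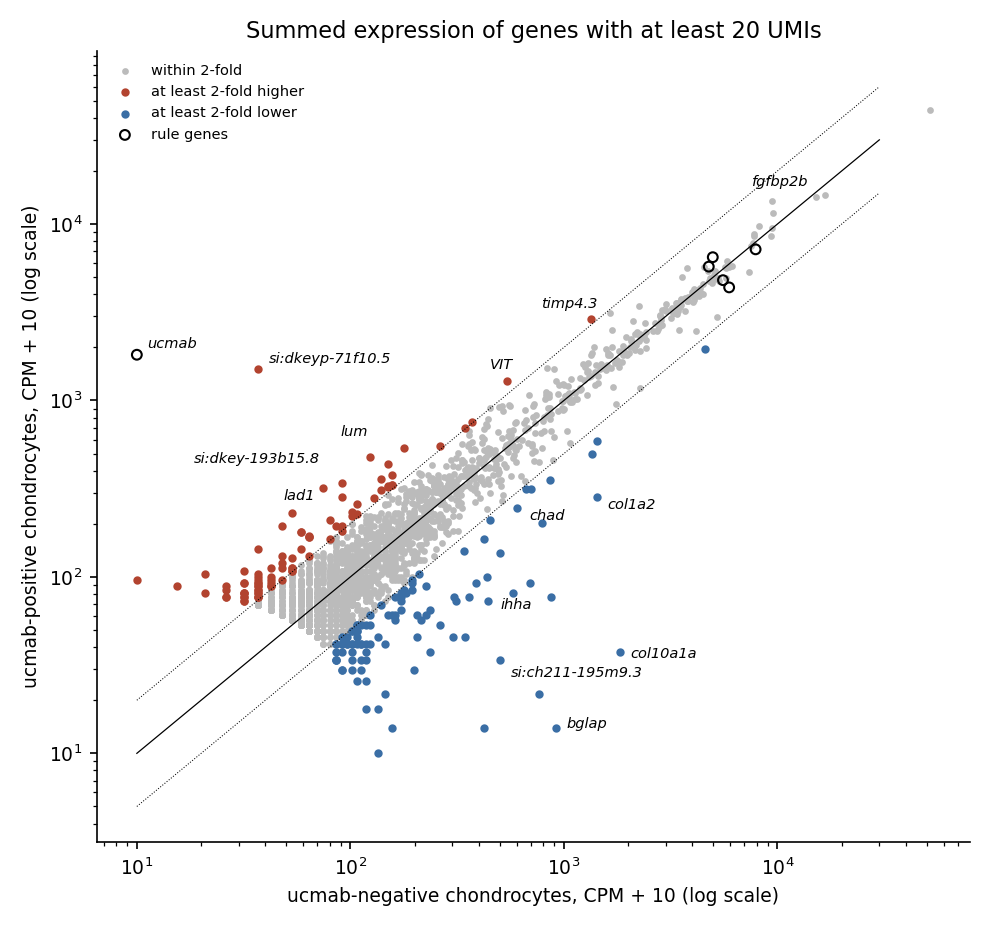
Summed expression of 1912 genes and of the 6 rule genes (circles) in *ucmab*-positive (vertical axis) and *ucmab*-negative chondrocytes (horizontal axis), as CPM with 10 added, both on log scales. The solid line marks equal levels and the dotted lines 2-fold, and most genes lie between the dotted lines, with *col10a1a*, *bglap*, *ihha* and *si:ch211-195m9.3* far below them.

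Genes of the cartilage matrix came first. None of the 6 cartilage collagen genes tested besides *col2a1a* was past 2-fold, and their median log2 ratio was 0.16. *col9a1a* was at 1806 CPM in *ucmab*-positive and 1890 CPM in *ucmab*-negative cells (ratio 0.955, 0.830 to 1.1), and *col11a1a* at 1586 and 1588 CPM. *col11a2* was at 1944 and 1572 CPM (ratio 1.24, 1.07 to 1.43). The fibril genes thus had close levels whether or not *ucmab* was found. Among the rule genes, which were used to choose both sets alike, *cnmd*, the gene of the angiogenesis inhibitor chondromodulin, was at 6477 and 4969 CPM, and *mia*, which encodes a small secreted cartilage protein, at 4364 and 5930 CPM.

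Of the other matrix proteins on the list, 7 were tested, with a median log2 ratio of 0.63, against 0.04 for all genes tested. Of the 7, 1 was past 2-fold higher (*prelp*) and 1 lower (*chad*), beside 4.50% and 5.39% of all genes. *chad* encodes chondroadherin, a leucine-rich protein that binds type II collagen. It was found in 24.4% of *ucmab*-positive cells (15.3 to 35.4%) and 53.2% of *ucmab*-negative cells (40.1 to 66.0%), at 236 and 594 CPM, so the negative set was 2.52 times higher (1.82 to 3.51). At 1000 UMIs per cell, the shares were 8.97% and 37.1%. Without the cells that held *col10a1a* or *ihha*, the log2 ratio of *chad* went from -1.30 to -0.60. *prelp*, the gene of a leucine-rich proteoglycan, rested on few transcripts, at 110 and 37.8 CPM (28 and 7 UMIs). *otos* was at 1515 and 826 CPM and *epyc* at 539 and 346 CPM, with ratios of 1.83 (1.52 to 2.23) and 1.56 (1.15 to 2.13). Both were under 2-fold.

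Several matrix and matrix-related genes (*timp4.3*, *VIT*, *CLEC3A*, *bgnb* and *cst3*) were chosen after their values had been seen. *timp4.3*, a member of the family of metalloproteinase inhibitors, was found in 89.7% and 79.0% of cells. In single *ucmab*-positive cells it ran from 0 through a median of 2278 CPM to 12891 CPM, and in *ucmab*-negative cells from 0 through 953 to 4768 CPM, so the ranges overlapped although the highest value was in the positive set. Its ratio of summed CPM was 2.19 (1.89 to 2.54). *VIT*, which encodes vitrin, an extracellular protein with von Willebrand factor A domains, was found in 76.9% of *ucmab*-positive cells (66.0 to 85.7%) and 45.2% of *ucmab*-negative ones (32.5 to 58.3%), and in 56.4% and 30.6% at equal depth. Its medians were 935 and 0 CPM per cell and its highest values 8203 and 4393 CPM. The 21 members with 1 *ucmab* UMI were close to the *ucmab*-negative cells for *VIT*, at 52.4% of cells and 506 CPM against 45.2% and 529 CPM. Without the cells that held *col10a1a* or *ihha*, the log2 ratio of *VIT* went from 1.25 to 0.54. *tnxba* and *fgfbp2b* had been named by their ratios to all other cells. *tnxba* was at 3108 and 1642 CPM (ratio 1.89, 1.66 to 2.17) and *fgfbp2b* at 13536 and 9409 CPM (ratio 1.44, 1.36 to 1.53). Without the cells that held *col10a1a* or *ihha*, the log2 ratio of *tnxba* went from 0.92 to 0.40. In the other direction, *CLEC3A*, which encodes a C-type lectin of cartilage, was at 130 CPM in *ucmab*-positive and 329 CPM in *ucmab*-negative cells, *bgnb*, which encodes a biglycan, at 153 and 410 CPM, and *cst3*, which encodes the protease inhibitor cystatin C, at 346 and 848 CPM. Each of these 3 was over 2-fold lower beside *ucmab*.

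By the naming rule (at least 100 CPM and 10% of cells in the higher set), *lad1* and *si:dkey-193b15.8* followed *ucmab* as the genes with the highest ratios to *ucmab*-negative cells. *lad1* is the zebrafish form of ladinin, known in mammals as a protein of epithelial anchoring filaments. It was found in 24 *ucmab*-positive cells (30.8%, 20.8 to 42.2%) and 2 *ucmab*-negative cells (3.23%, 0.393 to 11.2%), at 220 and 43.2 CPM, a ratio of 5.10 (2.42 to 12.4). It was found in 0 of the 106 other cells of the library and in 0.153% of those of the other library. *si:dkey-193b15.8*, which has no descriptive name in the files, was found in 36 *ucmab*-positive cells (46.2%, 34.8 to 57.8%) and 6 *ucmab*-negative cells (9.68%, 3.63 to 19.9%), at 311 and 64.8 CPM, a ratio of 4.80 (2.60 to 9.67). Its share in the other cells of the library was 1.89%. Both genes were thus rare outside the gated cells, and 14 members held both. At 1000 UMIs per cell, the shares were 11.5% and 3.23% for *lad1* and 20.5% and 4.84% for *si:dkey-193b15.8*. Without the cells that held *col10a1a* or *ihha*, their log2 ratios went from 2.11 and 2.10 to 1.12 and 1.11.

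*gclm* and *txn* belong to the handling of oxidative stress, as a subunit of the enzyme that starts glutathione synthesis and as thioredoxin. *gclm* was found in 39 *ucmab*-positive cells (50.0%, 38.5 to 61.5%) and 13 *ucmab*-negative cells (21%, 11.7 to 33.2%), at 331 and 81.0 CPM, a ratio of 4.08 (2.34 to 7.61). *txn* was at 275 and 81.0 CPM, but 3 cells held 80.0% of its UMIs in the positive set. *olfml3b*, which encodes an olfactomedin-like secreted protein, was found in 64.1% (52.4 to 74.7%) and 29.0% of cells (18.2 to 42.0%), at 429 and 140 CPM, and in 32.1% and 19.4% at equal depth. In the 21 members with 1 *ucmab* UMI (median depth 2230 UMIs), *olfml3b* was found in 33.3%, at 139 CPM, close to the *ucmab*-negative cells. *lad1* was found in 42.9% of those 21 members. *cspg4*, which encodes a membrane proteoglycan, and *rasgef1bb*, which encodes an exchange factor for Ras-type GTPases, were each at 169 and 48.6 CPM, in 32.1% and 29.5% of *ucmab*-positive cells and 12.9% of *ucmab*-negative ones. *rcc1*, which encodes the exchange factor of the GTPase Ran, was at 134 and 27.0 CPM with 70.6% of its UMIs in 3 members, and *kcnk5b*, the gene of a potassium channel, at 122 and 37.8 CPM. When each cell was thinned to 1000 UMIs before the rule was applied, the log2 ratios of *txn*, *olfml3b*, *cspg4* and *kcnk5b* were -0.17, -0.093, -0.17 and -0.45, so these were not higher there, while those of *lad1*, *gclm* and *si:dkey-193b15.8* were 1.36, 0.97 and 1.03. XLOC_044191 was found in about as many cells of either set (15.4% and 16.1%) and its 531 CPM rested to 44.4% on 1 member.

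*lum* also entered by this rule (468 and 113 CPM), but 1 of the 2 members from the *trps1:eGFP*-enriched library held 89.9% of its UMIs. Without the top cell of each set its log2 ratio was -0.49, and in the *sox10:DsRed*-enriched library alone it was -0.38, so *lum* was not higher in the other members. Likewise *si:dkeyp-71f10.5*, singled out after its values had been seen, owed all 380 of its UMIs in members to 1 cell.

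**Figure D3:**
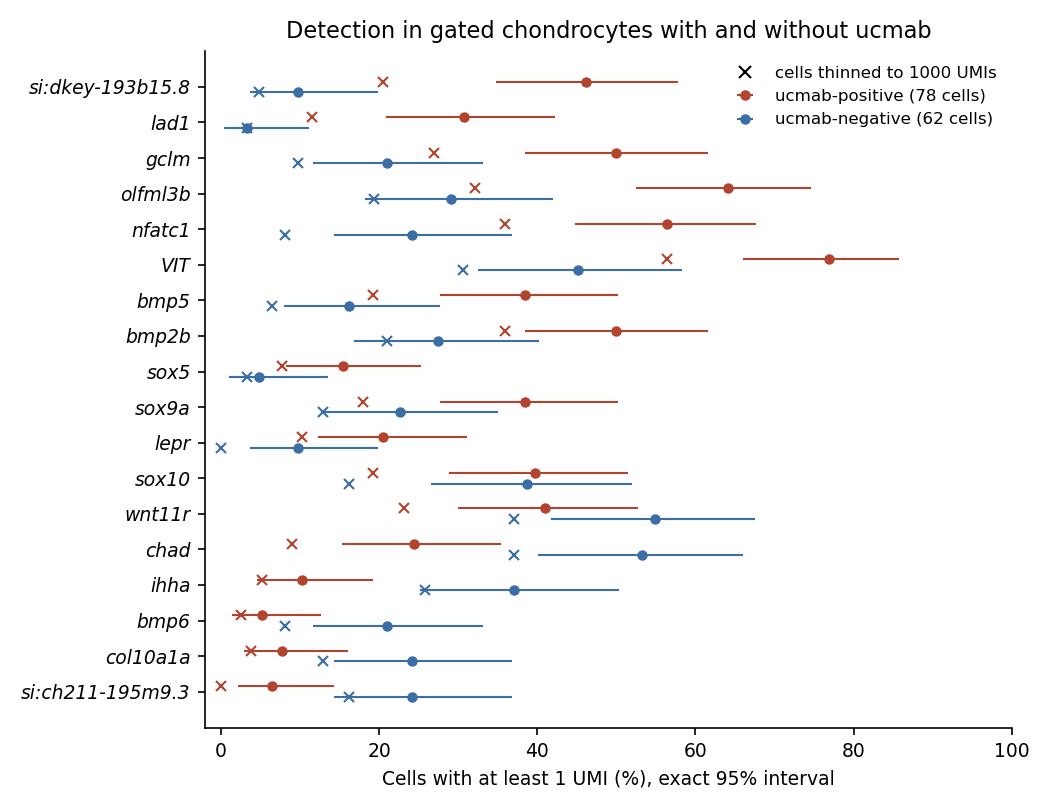
Share of cells with at least 1 UMI (horizontal axis, percent) for 18 genes in *ucmab*-positive (78 cells, red) and *ucmab*-negative chondrocytes (62 cells, blue). Points carry exact 95% intervals and crosses give the share after each cell was thinned to 1000 UMIs. *si:dkey-193b15.8*, *lad1*, *gclm*, *nfatc1* and *VIT* lie to the right in positive cells, *chad*, *ihha* and *si:ch211-195m9.3* in negative cells, and *sox10* lies at 39.7% and 38.7%.

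The genes with the lowest ratios included those of maturing chondrocytes. *col10a1a*, which encodes type X collagen, was found in 6 *ucmab*-positive cells (7.69%, 2.88 to 16.0%) with at most 2 UMIs in a cell, and in 15 *ucmab*-negative cells (24.2%, 14.2 to 36.7%) with up to 110, at 27.5 and 1826 CPM. The negative set was 66.3 times higher (31.8 to 166), but 3 of its cells held 74.3% of the UMIs. At equal depth, the shares were 3.85% and 12.9%. *ihha*, the Indian hedgehog gene, was found in 8 *ucmab*-positive cells (10.3%, 4.53 to 19.2%) with at most 3 UMIs, and in 23 *ucmab*-negative cells (37.1%, 25.2 to 50.3%) with up to 11, at 63.0 and 432 CPM, so the negative set was 6.86 times higher (3.98 to 12.6). The shares at equal depth were 5.13% and 25.8%. In the other cells of the library *ihha* was found in 8.49%, at 39.2 CPM and a median depth of 2224.5 UMIs, and the interval of the share in *ucmab*-positive cells includes this value. *ucmab* and *ihha* were thus found together in 8 of 140 chondrocytes.

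Over the list of chondrocyte maturation, 4 of the 10 genes tested were past 2-fold lower in *ucmab*-positive cells and 0 higher. Over all genes tested, the shares were 5.39% and 4.50%. The median log2 ratio of the list was -0.94 and the highest 0.52, that of *fgfbp2b*. Summed over the whole list, *ucmab*-positive cells were at 16160 CPM and *ucmab*-negative cells at 15215 CPM. The 4 lower genes were *ihha*, *col10a1a*, *col10a1b* (35.4 and 194 CPM) and *wnt11r*, the gene of a Wnt ligand (303 and 654 CPM). The deepest *ucmab*-negative cell held 18 of the 36 UMIs of *col10a1b* in its set, and the log2 ratio of this gene was -2.17, -1.35 without that cell and -0.25 when cells were thinned before the rule. *wnt11r* was still found in 32 *ucmab*-positive cells (41.0%) and 34 *ucmab*-negative cells (54.8%), and the negative set was 2.16 times higher by CPM (1.61 to 2.91), but without the cells that held *col10a1a* or *ihha* its log2 ratio was 0.31. The second Indian hedgehog gene, *ihhb*, was at 43.3 and 91.8 CPM and did not pass 2-fold. Of the genes that answer hedgehog signals, *gli1* was found in 1 member. *lepr*, the leptin receptor gene, was found in 16 *ucmab*-positive cells (20.5%, 12.2 to 31.2%) and 6 *ucmab*-negative cells (9.68%), at 82.6 and 32.4 CPM, and the interval of the ratio of 2.55 reached from 0.996 to 7.72. Its log2 ratio of 1.13 was 0.30 without the cells that held *col10a1a* or *ihha*, and 2.79 when cells were thinned before the rule. No member held both *lepr* and *ihha*, with 16 and 8 cells for each, and 1 of the 62 *ucmab*-negative cells held both. At such low counts a lack of shared cells says little, and it was not tested. Of the 8 members with *ihha*, 6 also held *wnt11r*.

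Further genes outside the maturation list were also low in *ucmab*-positive cells. *si:ch211-195m9.3* was found in 5 *ucmab*-positive and 15 *ucmab*-negative cells (6.41% and 24.2%), at 23.6 and 491 CPM, and in 0% and 16.1% at equal depth. *cspg5a*, which encodes a proteoglycan best known from nervous tissue, was found in 3.85% and 21% of cells, and *CELA1 (1 of many)*, annotated as an elastase gene, in 6.41% and 22.6%, at 35.4 and 292 CPM. *alpi.1*, an alkaline phosphatase gene, was at 35.4 and 335 CPM, *histh1l*, a gene of the histone H1 family, at 90.5 and 427 CPM, CABZ01072614.1 at 43.3 and 254 CPM and *zgc:163030* at 70.8 and 567 CPM. For *zgc:163030*, 3 cells held 87.6% of the UMIs of the negative set. Without the cells that held *col10a1a* or *ihha*, the log2 ratio of *cspg5a* went from -2.66 to -0.57 and that of *zgc:163030* from -2.84 to -0.14. *alpi.1* and *histh1l* were then at -1.24 and -1.55. *si:ch211-195m9.3*, *CELA1 (1 of many)* and CABZ01072614.1 were at -2.64, -2.39 and -3.44. *rgcc*, a cell cycle regulator chosen after its values had been seen, was found in 25.6% of *ucmab*-positive cells (16.4 to 36.8%) and 59.7% of *ucmab*-negative ones. *si:dkey-32e6.6* and *si:ch73-217n20.1*, also singled out after their values had been seen, were found in 28.2% and 33.3% of *ucmab*-positive cells and 48.4% and 58.1% of *ucmab*-negative cells, at 1939.9 and 192.8 CPM against 4569 and 783 CPM. *steap4*, the gene of a metalloreductase chosen in the same way, was common in both sets, at 2463 and 4153 CPM.

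The bone genes among the lowest ratios rested mainly on 1 cell. *col1a1a* was at 82.6 and 681 CPM, *col1a2* at 275 and 1415 CPM and *bglap*, which encodes osteocalcin, at 3.93 and 907 CPM. The deepest *ucmab*-negative cell (14570 UMIs) held all 168 UMIs of *bglap*, 82.5% of *col1a1a*, 83.2% of *col1a2* and 95.2% of *spp1*, but 0 UMIs of *ihha* and 7.99% of *col10a1a*. In the *sox10:DsRed*-enriched library alone, which holds this cell, the log2 ratios of *col1a1a* and *col1a2* were -3.94 and -2.96. With both libraries they were -2.90 and -2.32. Without this cell, and with both libraries, *col1a1a* was at -0.59 and *col1a2* at 0.09, and *bglap* went from -6.04 to 0.48. Of 1876 genes then tested, 80 were higher and 105 lower. Over the whole list of osteoblast markers, 5 of 8 tested genes were lower and 0 higher (median log2 ratio -2.61), beside 5.39% and 4.50% of all genes. Each of the 5 is a collagen gene or *bglap*, with *col10a1a* also on the maturation list. In members, 8 of the 11 osteoblast markers were found, *ifitm5*, *sp7* and *phex* were at 0, and the summed level ran from 0 through a median of 3595 CPM to 93679 CPM per cell, against 0, 6562 and 76184 CPM in *ucmab*-negative cells. The upper end in members came from *spp1*, of whose UMIs 1 member held 92.6%. What these cells are, and whether they hold RNA of 2 cells, was not tested.

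Among transcription factors of the list, 7 were tested, with a median log2 ratio of 0.46. Of these, 1 was past 2-fold higher (*sox6*) and 0 lower, beside 4.50% and 5.39% of all genes. *sox9a*, the main regulator of cartilage genes, was found in 38.5% of *ucmab*-positive cells (27.7 to 50.2%) and 22.6% of *ucmab*-negative ones (12.9 to 35.0%), at 201 and 108 CPM, and in 17.9% and 12.9% at equal depth. *sox6*, which acts together with *sox9a*, was found in 20.5% and 9.68%, at 78.7 and 32.4 CPM, and the interval of its ratio of 2.43 reached from 0.941 to 7.39. *sox5* had only 14 and 3 UMIs and *trps1* 9 and 7. *nfatc1*, the gene of a calcium-regulated transcription factor, and *pax9*, a gene of jaw and tooth development, were chosen after their values had been seen. *nfatc1* was found in 56.4% of *ucmab*-positive cells (44.7 to 67.6%) and 24.2% of *ucmab*-negative ones (14.2 to 36.7%), in 35.9% and 8.06% at equal depth, and at 350 and 130 CPM. *pax9* was found in 41.0% and 21% of cells, at 319 and 140 CPM, and in 0.102% of the other cells of the *trps1:eGFP*-enriched library. Thinned before the rule, *sox6* and *pax9* had log2 ratios of -0.74 and -0.073. Without the cells that held *col10a1a* or *ihha*, the log2 ratio of *nfatc1* went from 1.37 to 1.26 and that of *pax9* from 1.13 to 0.63.

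Of 15 BMP and TGF-beta genes tested, 2 ligand genes were past 2-fold higher (*bmp2b* and *bmp5*), 1 lower (*bmp6*) and 12 in between. *bmp2b* was found in 50.0% of *ucmab*-positive cells (38.5 to 61.5%) and 27.4% of *ucmab*-negative ones, at 539 and 254 CPM. *bmp5* was found in 38.5% and 16.1%, at 224 and 91.8 CPM, and *bmp6* in 5.13% and 21%, at 31.5 and 135 CPM. *bmp2a* was at 51.2 and 43.2 CPM. These 2 of 15 and 1 of 15 stand beside 4.50% and 5.39% of all genes. *bmp2b* was past 2-fold in 9 of 19 alternatives, some of which could not change its ratio. When cells were thinned before the rule, its log2 ratio was 0.10. Without the cells that held *col10a1a* or *ihha*, the log2 ratios of *bmp2b*, *bmp5* and *bmp6* were 0.69, 0.55 and -0.80. *id1*, a common target of BMP signals, was at 1003 and 1145 CPM (ratio 0.876, 0.727 to 1.06). *tgif1*, which encodes a repressor in TGF-beta signalling and was chosen after its values had been seen, was at 323 and 146 CPM. Of 6 tested FGF and IGF genes, 0 were higher and 1 lower. *fgfr3*, whose product restrains chondrocyte growth in mammals, was at 153 and 108 CPM (ratio 1.42, 0.809 to 2.57).

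The lists of matrix synthesis and metabolism showed small shifts. Of 10 genes of chondroitin sulfate synthesis, *ugp2b*, which encodes an enzyme that makes UDP-glucose, was past 2-fold higher (98.4 and 21.6 CPM, 25 and 4 UMIs), and the median log2 ratio was 0.47. Of 11 genes of collagen processing and secretion, none was past 2-fold, and the median was -0.14. Of 13 genes of glycolysis and hypoxia, *ldha*, which encodes lactate dehydrogenase, was past 2-fold (185 and 75.6 CPM, ratio 2.45, 1.32 to 4.81), *pgam1a*, which encodes phosphoglycerate mutase, was just short of it (893 and 443 CPM, log2 ratio 0.996), and the median was 0.50. Of the cell division genes, *pcna* was found in 39.7% and 25.8% of cells, while *mki67*, *top2a* and *cdk1* were at 0 in members. Of 17 genes of dissociation stress, 2 were past 2-fold higher (*fosl1a*, at 748 and 362 CPM, and *hsp70.1*, with 39.2% of its UMIs in 1 member) and 0 lower, and the median was 0.31. The list medians may be set beside the 0.04 of all genes tested, and the counts beside 4.50% higher and 5.39% lower of all genes.

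**Figure D4:**
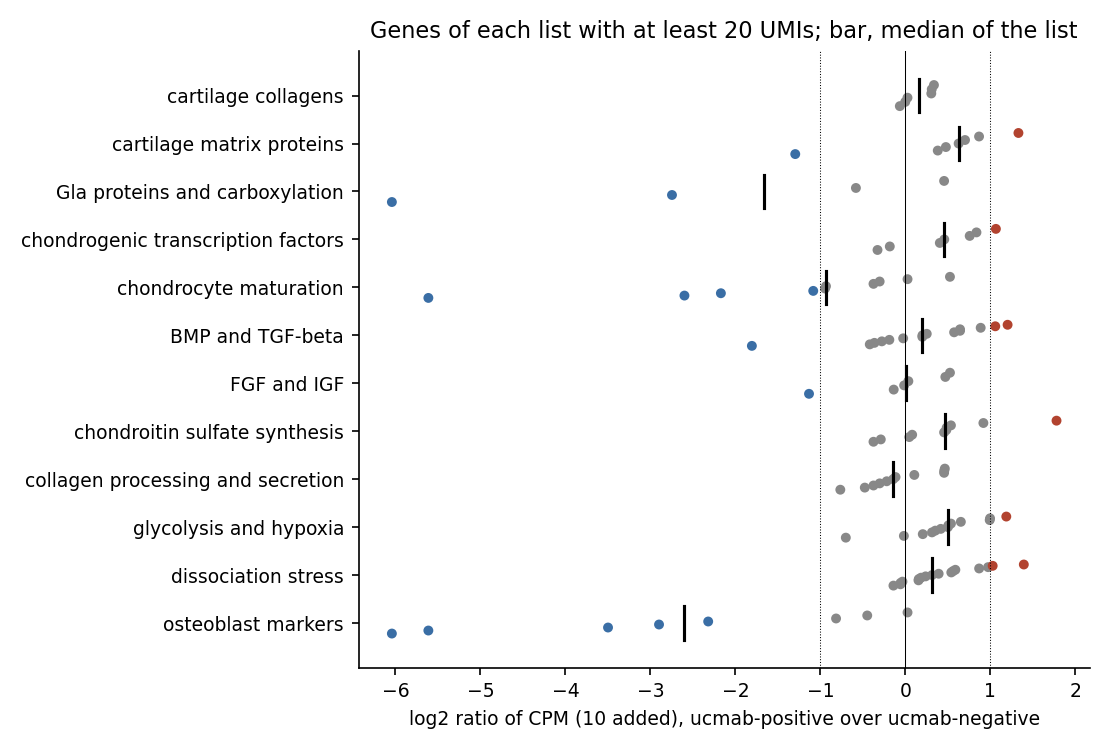
Log2 ratio of CPM, with 10 CPM added, of *ucmab*-positive over *ucmab*-negative chondrocytes (horizontal axis) for each gene with at least 20 UMIs in 12 gene lists. Red points are at least 2-fold higher, blue points at least 2-fold lower and bars give the median of a list, which was lowest for osteoblast markers (-2.61) and highest for cartilage matrix proteins (0.63).

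Besides *ucmab*, 4 genes of Gla proteins and their carboxylation were tested. *bglap* and *mgp*, which encodes matrix Gla protein, were past 2-fold lower and 0 higher, beside 5.39% and 4.50% of all genes. The deepest *ucmab*-negative cell held all *bglap* UMIs of its set, and without it the log2 ratio of *bglap* was 0.48. *mgp* was found in 3 *ucmab*-positive and 6 *ucmab*-negative cells, with 5 and 35 UMIs, 11 of the 35 in that cell. The log2 ratio of *mgp* was -2.34 without that cell and 0.52 without the cells that held *col10a1a* or *ihha*. The carboxylase gene *ggcx* was found in 2 members and the gene of the enzyme that recycles vitamin K, *vkorc1*, in 16 (63.0 CPM, against 43.2 CPM). The osteocalcin-like gene *bglapl*, outside the list and added after its values had been seen, was found in 29 members (37.2%, 26.5 to 48.9%), at 1802 CPM, against 38.7% and 1329 CPM in *ucmab*-negative cells and 34.9% and 4124 CPM in the other cells of the library. A single member held 44.8% of its UMIs in the positive set and a single cell 71.1% in the negative set.

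Markers of other cell types were also counted in members. Of 9 glia markers, 6 were found, in 27 members, at 260 CPM summed (201 to 330) and up to 3089 CPM in a cell, with *foxd3*, *erbb3b* and *cldn19* at 0. In *ucmab*-negative cells 3 were found, in 9 cells, at 70.21 CPM, and in the other cells of the library the list was at 1639 CPM. *mbpa*, a myelin gene, and *egr2b* were past 2-fold higher in *ucmab*-positive cells, with 18 against 5 and 26 against 7 UMIs. Of 7 epithelial markers, 6 were found, at 3951 CPM summed, against 3657 CPM in *ucmab*-negative cells and 4599 CPM in the other cells of the library, mainly *krt8* (in 97.4% of members and 90.6% of the other cells of the library), with *cdh1* at 0. Of 10 markers of fibroblasts and connective tissue, 8 were found, in 61 members, at 1279 CPM summed and up to 17939 CPM in a cell, against 729 CPM in *ucmab*-negative cells and 1005 CPM in the other cells of the library, with *sfrp2* and *mfap5* at 0. In the 76 members of the *sox10:DsRed*-enriched library alone this list was at 790 CPM (683 to 910). *twist1a*, a transcription factor gene of mesenchyme, held 166 of its 325 UMIs and *lum* 119. Of 10 markers of blood and immune cells 1 was found, in 1 member, of 6 endothelial markers 1, in 3 members, and all 5 muscle markers were at 0. Of 10 genes of the superficial zone, 4 were found, in 39 members, at 504 CPM summed, with *prg4b* and *vcana* at 0. This list was at 367 CPM in *ucmab*-negative cells, 145 CPM in the other cells of the library and 1255 CPM in those of the other library. In the 76 members of the *sox10:DsRed*-enriched library alone it was at 360 CPM (289 to 444). The part of cells with markers of other types in the differences above was not tested. A further comparison kept the 58 *ucmab*-positive and 38 *ucmab*-negative cells with under 3 markers of each of 6 lists. These were osteoblast, glia, epithelial, endothelial, ligament, and blood and immune markers. No cell was removed for markers of fibroblasts and connective tissue, muscle or the superficial zone. Of 1345 genes tested in the kept cells, 65 were higher and 60 lower, 27 and 29 of them among the 86 and 103. There the log2 ratios of *VIT*, *bmp5*, *bmp2b* and *pax9* were 0.70, 0.69, 0.46 and 0.38. Those of *gclm*, *lad1* and *si:dkey-193b15.8* were 1.91, 1.55 and 1.35.

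Members were also ordered by their *ucmab* level, which the rule had used only as present or absent, and divided into 3 sets of 26 cells at 139 to 710, 724 to 1740 and 1793 to 14462 CPM of *ucmab*, with similar median depths (2922, 3037 and 3226 UMIs). From the lowest to the highest set, *col2a1a* was at 3548, 4855 and 8524 CPM, and its median per cell was 2000, 3843 and 6701 CPM. Single cells spread widely, with quartiles of *col2a1a* at 1491 and 7051 CPM over all 78 members. *col9a1a* was at 1113, 1373 and 2841 CPM, and its median at 650, 1164 and 2418 CPM. In *ucmab*-negative cells the medians of *col2a1a* and *col9a1a* were 3259 and 1877 CPM, above those of the lowest set. The order of these 2 genes thus held among members and did not extend to chondrocytes without *ucmab*. *cnmd* and *matn1* were at 8356 and 8826 CPM in the highest set, against 5445 and 5927 in the middle and 5468 and 6643 in the lowest set. Of these, *col2a1a*, *cnmd* and *matn1* belong to the rule that chose the cells, and only *col9a1a* lies outside it. *VIT* was at 881, 1241 and 1656 CPM summed, but its median was higher in the middle set (1170 CPM) than in the highest (1047 CPM).

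Other genes of the same cells did not follow. *fgfbp2b* was at 13212, 13481 and 13883 CPM, with overlapping intervals. *snorc*, a rule gene that encodes a transmembrane proteoglycan of chondrocytes, was at 5481, 4843 and 4128 CPM, but 1 cell held 31.7% of its UMIs in the lowest set, and the medians per cell were 3764, 4252 and 3613 CPM. *mia*, also a rule gene, was at 4617, 3991 and 3658 CPM without the 2 members from the *trps1:eGFP*-enriched library, and its medians over all members were 2899, 3720 and 3261 CPM. Neither gene had its highest median in the set of highest *ucmab*. *si:dkey-193b15.8* was found in 9, 19 and 8 cells and *lad1* in 10, 8 and 6. Transcripts that were more often found beside *ucmab* were thus not all higher where its level was higher. *ihha* was found in 5 cells of the lowest set, 1 of the middle and 2 of the highest, and *lepr* in 3, 7 and 6. Without the cell of 75 *ucmab* UMIs, *col2a1a* in the highest set was at 8752 CPM. The cells share 1 library almost throughout, so this is a description of these cells only.

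**Figure D5:**
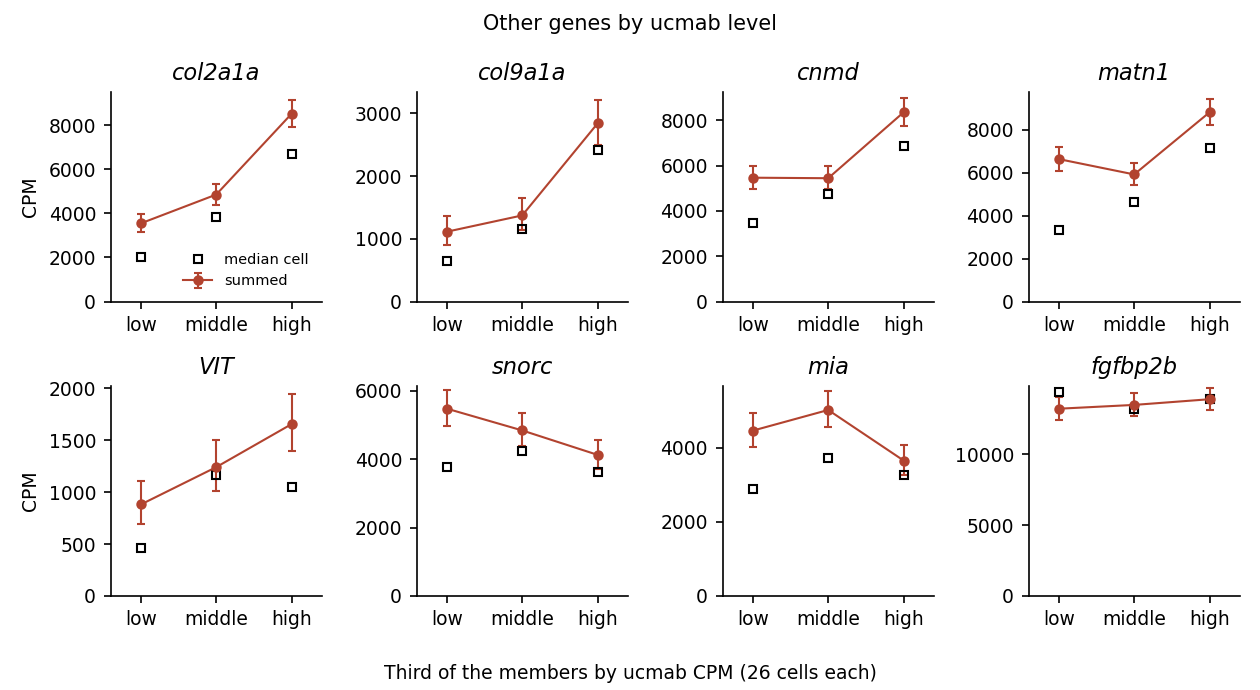
Expression of 8 genes (CPM, vertical axes from 0) in *ucmab*-positive chondrocytes of low, middle and high *ucmab* level (26 cells each). Filled points give the summed CPM with exact 95% Poisson intervals and open squares the median cell. *col2a1a* goes from 3548 to 8524 CPM and *col9a1a* from 1113 to 2841 CPM, while *fgfbp2b* stays between 13212 and 13883 CPM.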

How the data were processed

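Single-cell RNA sequencing libraries were made by the authors with the 10x Genomics 3′ kit (v.2), 1 from each sort of a pool of jaw joints. The deposited values are raw UMI counts of 36355 features per barcode, which per the labels were made with Cell Ranger 3.0.0 on the GRCz11 build, with the annotation of Lawson and the reporter sequences added. Barcodes numbered 462 in the *sox10:DsRed*-enriched and 4876 in the *trps1:eGFP*-enriched library, with 1073482 and 17424489 UMIs. Counts of the 216 symbols listed more than once were summed. Near-identical paralogs may share reads.

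Barcodes with 500 to 2000 genes and at most 5% of UMIs on 12 mitochondrial features were kept. No doublet caller was run, and doublets were limited only by the upper limit on genes. UMIs were summed over the cells of a set and scaled to CPM. Shares carry exact Clopper-Pearson, CPM exact Poisson and ratios exact conditional 95% intervals (scipy 1.17.1, numpy 2.4.6, Python 3.11.15). Genes with at least 20 UMIs were compared after 10 CPM had been added, and 2-fold was the threshold. Thinning drew 1000 UMIs per cell without replacement. The scripts were tested on simulated data.

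Named genes were the rule genes, the transgenes, the 12 with the highest and the 12 with the lowest ratio to *ucmab*-negative cells among genes of at least 100 CPM in at least 10% of cells of the higher set, the 10 with the highest ratio to all other cells, and members of 24 lists (328 of 335 symbols were annotated). The members and lists were chosen with earlier results of these data known. The samples were not replicated, so p-values were not computed. Alternatives changed the limits, gate, *ucmab* limit, library, depth, added CPM, minimum of UMIs, total and weights. Imaging and injury experiments were not analysed here, and no sequence or coordinate is given because the reference at hand is of another build.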

Additional observations from a re-analysis of the deposited data

Results flagged for a closer look

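Barcodes outside the limits were not part of any comparison, but some carried the same signal. Of 1114 barcodes with under 500 genes, 23 met the chondrocyte gate and 5 of these held *ucmab* (21.7%, 7.46 to 43.7%), at a median depth of 991 UMIs. Among gated cells within the limits the share was 55.7% (47.1 to 64.1%), and 40.0% (31.8 to 48.6%) after these cells were thinned to 1000 UMIs. In the cells of the *sox10:DsRed*-enriched library that were within the limits but missed the gate, the share was 4.72% (median depth 2224.5 UMIs). Of these cells, 17 held 3 of the 5 gate genes, and 2 of the 17 held *ucmab*. Of the 48 barcodes with over 2000 genes and the 161 with over 5% mitochondrial UMIs, 0 met the gate.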

How the results depend on the processing

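No paired analysis was possible because each sort gave 1 library and the labels give no replicate numbers. With each cell thinned to 1000 UMIs before the rule, 47 cells were *ucmab*-positive (37.9% of the gated cells). Of 721 genes tested there, 23 were higher and 54 lower than in *ucmab*-negative cells. Only 5 and 20 of these were among the 86 and 103 of the report, which came from 1912 genes. The counts below depend in part on the number of genes tested. With the sets fixed first and then thinned, the counts were 46 and 40 of 794 genes, and 16 and 24 of these were among the 86 and 103. With 50 CPM added the counts were 23 and 53 of 1912 genes. With no minimum of UMIs they were 632 and 823 of 11219, and with a minimum of 50 UMIs 36 and 40 of 934. With at least 3 of the 5 markers, 131 of 2126 genes were higher. The lower genes numbered 60 of 1345 without cells that carried 3 markers of another type. They numbered 62 of 1389 without cells with *col10a1a* or *ihha*, an alternative chosen after seeing the data. Of these 62, 27 were among the 103, and of the 79 higher genes there, 30 were among the 86. Against all other cells, 2296 of 13045 genes were higher with 1 CPM added and 344 of 13045 with 50 CPM. Within the *sox10:DsRed*-enriched library, with the members of that library alone, 364 of 2948 genes were higher.

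The ratios of 42 named genes were computed under 19 alternatives. The limits of 2500 genes and of 10% mitochondrial UMIs kept the same cells, and the minimum of UMIs does not enter a ratio. These alternatives left every ratio at its main value and so are no check of it. Of the 42 genes, 27 kept the sign of their log2 ratio in every alternative, and 22 of 798 values changed sign. When cells were thinned before the rule, these were *txn* (-0.17), *lum* (-3.04), *cspg4* (-0.17), XLOC_044191 (-0.33), *olfml3b* (-0.093), *kcnk5b* (-0.45), *sox6* (-0.74), *pax9* (-0.073) and *col1a2* (0.17). *txn* was at -0.65 with 3 markers required. With all 5 required, *lum* was at -0.055, *col1a2* at 0.32 and *bglap* at 0.52. *lum* was at -0.38 in the *sox10:DsRed*-enriched library alone and at -0.49 without the top cell of each set. Without cells of 3 markers of another type, *zgc:163030* was at 1.75 and *col1a2* at 0.068. Without cells with *col10a1a* or *ihha*, *wnt11r* was at 0.31, *mgp* at 0.52 and *col1a2* at 0.12. Without the deepest *ucmab*-negative cell, *col1a2* was at 0.091 and *bglap* at 0.48. The cause was not tested. *si:dkey-193b15.8*, *si:ch211-195m9.3*, *alpi.1*, *CELA1 (1 of many)* and CABZ01072614.1 stayed past 2-fold in all 19, and *lad1*, *gclm*, *nfatc1*, *chad* and *ihha* in 18. Depth limits the rare genes most, since 20 UMIs over 140 cells leave most cells at 0.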
